A study of Mus musculus with 51 samples.

Results

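The transcriptome of *Eomes*/*T* double knockout (dKO) mouse ES cells was followed from day 2 to day 3 of differentiation with Bmp4 (20 ng/ml), using 2 of the 18 RNA-seq samples in a series of 51 samples. For each gene the dKO FPKM (fragments counted per gene, scaled for transcript length and library size) on day 3 was divided by that on day 2, after scaling to a median ratio of 1 over 10428 genes above FPKM 1 on both days. Of 24538 genes in each table, 11336 had an FPKM above 1 on at least one of these days and were examined. The dKO line carries deletions of the promoter and first exon of both genes. It was made by double-nicking CRISPR/Cas9 from the *Eomes* KO line, itself derived from F1G4 ES cells, so every difference refers to a single edited line. F1G4 WT cells on days 2 and 3, which received the same Bmp4 treatment, are given beside the dKO from the same tables. Also used, with the same Bmp4 treatment, were *Eomes* KO and *T* KO cells (both made from F1G4) on days 2 and 3. WT cells of the *Smad4* experiment on days 1 and 2 and F1G4 WT cells on day 1 were used as well. The labels list 1 sample per day for the dKO, for each single KO and for the WT cells of the *Smad4* experiment, and 2 F1G4 WT samples per stage. The figure legends describe averages of 2 replicates, and each column holds a single value per gene. No difference below therefore has a replicate check, and the depth behind each value is unknown.

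*Eomes* and *T* (Brachyury) are T-box transcription factors that act in the primitive streak, the site where epiblast cells leave the epithelium to form mesoderm and definitive endoderm. Bmp4 signals through Smad proteins and, with Wnt and Nodal signals, switches on both factors in pluripotent cells. Embryos without *T* lack posterior mesoderm, and embryos without *Eomes* in the epiblast fail to form cardiac mesoderm and endoderm. The comparison asks which genes cells without both factors turn on and off while WT cells pass into nascent mesoderm.

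The targeted genes were low in the dKO on both days. FPKM of *Eomes* (9:118478186-118486132, mm10) was 1.24 on day 2 and 0.346 on day 3 in the dKO, against 9.40 and 20.2 in WT. FPKM of *T* (17:8434423-8442496, mm10) was 2.77 and 1.93 in the dKO and 43.0 and 332 in WT. Reads from the exons that remain still count toward these values. Of the defining markers of nascent and cardiac mesoderm, *Mesp1* was listed at 0 in the dKO on day 3 and at 5.65 in WT, and *Mixl1* stood at 0.173 against 16.2. *Isl1* and *Pdgfra* were below FPKM 1 in the dKO on both days and at 1.36 and 1.88 in WT on day 3. *Kdr*, *Gata4* and *Tbx6* were below FPKM 1 in both genotypes on both days. *Hand1* and *Foxf1*, which also belong to lateral mesoderm, were higher in the dKO (below).

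From day 2 to day 3, 957 genes were at least 2-fold higher in the dKO (log2 ratio above 1, 8.44% of those examined) and 358 were lower (log2 ratio below −1, 3.16%). In WT 703 of 11409 genes (6.16%) were higher and 460 (4.03%) were lower. As a measure of how far columns of cells without a deletion differ, the WT cells of the *Smad4* experiment, a line of other origin with conditional *Smad4* alleles, were compared with F1G4 WT cells on day 2, where 5.0% of 11116 genes were past 2-fold in either direction (11.1% of 11194 on day 1). The robust SD of the log2 ratio was 0.501 in the dKO, 0.395 in WT and 0.344 between the WT lines on day 2. Higher genes made up 72.8% of the calls, and this share rose to 86.0% when FPKM was rescaled to TPM (1381 higher, 224 lower), which moved all dKO ratios up by 0.22 on the log2 scale and those of WT by −0.01. The share was 61.3% with no filter on low values and 53.8% (1355 higher, 1165 lower) when genes were called past 2 robust SDs of the WT lines. With TPM the calls of *Pou5f1*, *Tdgf1*, *Etv5*, *Dppa4*, *Gdf3*, *Id2*, *Ldha*, *Idi1*, *Apcdd1*, *Cdh2* and *Grrp1* as lower ended (log2 −0.98 to −0.78). Among the higher genes 383 had been at or below FPKM 1 on day 2, and 24 of these passed FPKM 5 on day 3. Among the lower genes 158 ended at or below FPKM 1.

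The dKO ratios also moved with expression level and, less, with transcript length. The median log2 ratio was 0.26 in the lowest and −0.21 in the highest of 4 equal bins of protein-coding genes by mean FPKM, against 0.03 and −0.03 in WT. From the bin of shortest to that of longest transcripts it went from −0.10 to 0.15 in the dKO. The part of these trends in the results below was not tested. Short RNA genes, such as snoRNAs, had a median of 0.96 in the dKO and 0.15 in WT (98 examined, 47 higher and 4 lower in the dKO). Replication-dependent histone genes had a median of −0.47 in the dKO and 0.02 in WT (75 examined, 2 higher and 10 lower).

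The 10 highest ratios among genes with an FPKM of at least 10 on the higher day were those of *Csf1*, *Igf2*, *Mal*, *Tnnt3*, *Tuba8*, *Acta2*, *Tmprss2*, *Pmp22*, *Cryab* and *Krt7*. FPKM of *Csf1* (3:107741048-107760469, mm10), a growth factor of macrophages and placenta, went from 0.506 to 15.2, which was 29.9-fold higher. *Igf2* (7:142650768-142666816, mm10), the imprinted growth factor, went from 7.89 to 197 and was 24.8-fold higher. *Acta2* (19:34240336-34255585, mm10), smooth muscle actin, went from 4.22 to 80.1. All 10 genes also rose past 2-fold in WT, by log2 ratios of 1.47 for *Acta2* to 3.65 for *Tmprss2*. Each of the 10 log2 ratios was larger in the dKO, which the choice of genes by their dKO ratios favours. *Krt7* (15:101412403-101427806, mm10), a keratin of simple epithelia, reached 113 from 7.29 in the dKO and 48.2 from 10.0 in WT. *Tnnt3*, a troponin T of striated muscle, reached 33.1 from 1.59 in the dKO and 11.0 from 2.09 in WT.

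**Figure D1:**
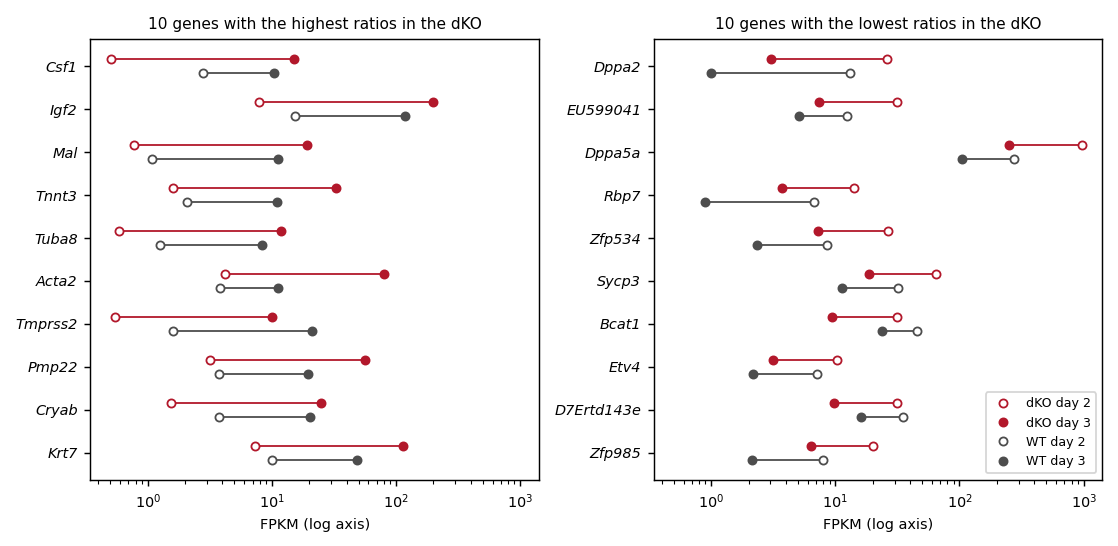
FPKM (log axis) on day 2 (open circles) and day 3 (filled circles) in the dKO (red) and WT (grey) for the 10 genes with the highest (left) and the 10 with the lowest (right) ratios of day 3 to day 2 in the dKO. Each circle is 1 value per condition, and lines join the days: all the genes shown moved the same way in both genotypes, as *Igf2* did from 7.89 to 197 in the dKO and from 15.4 to 118 in WT.

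The 12 lowest ratios were those of *Dppa2*, *EU599041*, *Dppa5a*, *Rbp7*, *Zfp534*, *Sycp3*, *Bcat1*, *Etv4*, *D7Ertd143e*, *Zfp985*, *Zfp936* and *Aim2*. FPKM of *Dppa2* (16:48310274-48319513, mm10), a chromatin factor of pluripotent cells, went from 25.9 to 3.03 in the dKO and from 13.2 to 0.994 in WT. *Dppa5a* (9:78367052-78368199, mm10), an RNA-binding protein of pluripotent and germ cells, went from 970.3 to 249.9 in the dKO and from 273 to 104 in WT. *Sycp3* (10:88459587-88473236, mm10), a component of the synaptonemal complex, went from 65.1 to 18.7 in the dKO and from 32.2 to 11.3 in WT. The 3 zinc finger genes lie among near-identical copies, so their values may hold reads of their neighbours. All 12 also fell past 2-fold in WT, by log2 ratios of −1.03 for *Bcat1* to −3.81 for *Dppa2*. For 10 of the 12 genes the dKO stood above WT on day 3, the exceptions being *Bcat1* (9.43 against 23.6) and *D7Ertd143e* (9.72 against 16.0).

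Genes that mark trophoblast and amnion, the extraembryonic lineages that Bmp4 can induce in pluripotent cells, were among the groups with the largest rise. Of 24 listed genes 14 were examined, 9 were higher (64.3%, against 8.44% of all examined genes) and 1, *Eomes* itself, was lower. In WT 12 of the 14 were higher. *Esx1* and *Plet1* passed FPKM 1 in the dKO only on day 3, and without the filter on low values the dKO median was 1.05. With the filter the median log2 ratio was 2.24 in the dKO and 1.42 in WT. The median over all examined genes was 0.02. *Hand1* (11:57828713-57832147, mm10), a basic helix-loop-helix factor of trophoblast giant cells, amnion and heart, went from 2.78 to 32.2 in the dKO and from 8.57 to 21.3 in WT. *Esx1*, an X-linked placental homeobox gene, went from 0.854 to 7.90, and *Plet1* from 0.508 to 3.80. The simple keratins *Krt8* (136 to 870.3), *Krt18* (217 to 1209) and *Krt19* (15.8 to 109.6) were higher as well. Other trophoblast regulators were not called higher. *Cdx2* went from 3.66 to 1.96 in the dKO and from 0.609 to 7.55 in WT, *Elf5* and *Cga* were listed at 0 on both days, and *Gcm1* stayed below FPKM 1. *Gata3* was at 1.02 and 1.12. *Gata2* went from 1.20 to 2.29 (log2 0.93), whereas *Tfap2c*, which was called, went from 3.01 to 6.06.

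Epithelial genes as a group lay above the median of all genes in the dKO, with smaller changes in WT. Of 28 epithelial and tight junction genes, 7 were higher (25.0%, against 8.44% of all examined genes) and none was lower in the dKO. In WT 5 were higher and 1 was lower. The median was 0.60 in the dKO and 0.07 in WT. The genes higher in the dKO were *Krt19*, *Krt8*, *Grhl3*, *Krt18*, *Cldn3*, *Cldn4* and *Pard6b*. *Grhl3*, a transcription factor of surface ectoderm, went from 1.04 to 5.88 in the dKO and from 2.23 to 3.25 in WT. *Cldn4*, a tight junction claudin, went from 58.1 to 195. *Cdh1* (E-cadherin) stood at 131 and 209 in the dKO (log2 0.67) and at 163 and 143 in WT (log2 −0.26). In 24 of the 28 genes the dKO ratio was above the WT ratio. It was below in 14.3% of them, against 45.9% of all examined genes.

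The mesenchymal side was mixed. *Cdh2* (N-cadherin), which replaces *Cdh1* as cells leave the streak, went from 1.29 to 0.592 in the dKO and from 1.10 to 5.78 in WT. *Vim* was at 50.2 and 81.2 in the dKO (log2 0.69) and rose from 40.7 to 275 in WT. Of 13 examined genes of epithelial-mesenchymal transition, 7 were higher (53.8%, against 8.44% of all examined genes). Only *Cdh2* was lower (7.69%, against 3.16%). The median was 1.13 in the dKO and 0.64 in WT, where 6 were higher. The dKO ratio was below the WT ratio in 5 of the 13 (38.5%, against 45.9% of all examined genes). The higher ones were mainly genes of the matrix and its turnover, *Fn1*, *Sparc*, *Mmp14*, *Itga5* and *Tgfb2*, together with the polarity gene *Crb2* and the repressor *Zeb2* (0.991 to 2.47). *Snai1* remained below FPKM 1 (0.121 and 0.458).

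Genes of the basement membrane and of cell adhesion moved up together in the dKO. Of 24 examined collagen, laminin and integrin genes, 13 were higher (54.2%, against 8.44% of all examined genes) and none was lower (against 3.16%). The median log2 ratio was 1.04 in the dKO and 0.32 in WT, where 4 genes were higher and 2 lower. *Nid1* (nidogen), which links laminin to collagen IV, went from 0.988 to 7.09 in the dKO and from 3.77 to 5.14 in WT. *Col4a1* and *Col4a2*, the main collagen IV chains, went from 6.48 to 20.9 and from 3.87 to 17.1. *Itga3*, a laminin receptor subunit, went from 10.0 to 33.6. In 22 of the 24 genes the dKO ratio exceeded the WT ratio. It was below in 8.33% of them, against 45.9% of all examined genes. Many of these transcripts are long, and the part of the trend with length in this result was not tested. On day 2 most of these genes were lower in the dKO than in WT, and on day 3 *Col4a1* stood at 20.9 against 12.3 and *Nid1* at 7.09 against 5.14.

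Guidance genes behaved in a similar way. Of 30 ephrin, semaphorin, Slit and receptor genes, 10 were higher (33.3%, against 8.44% of all examined genes) and none was lower (against 3.16%). The median was 0.58 in the dKO and 0.17 in WT. *Efnb1* (ephrin B1) went from 2.49 to 13.7 and *Sema3c* from 5.13 to 12.9, the latter being at 5.24 and 5.00 in WT. *Nrp1*, a semaphorin and Vegf co-receptor, went from 0.0198 to 1.29, so its ratio rests on a value near 0.

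Feeder cells had been removed before differentiation, and fibroblast transcripts were checked because several of them are matrix genes. Of 20 listed genes 10 were examined and 7 were higher in the dKO (70.0%, against 8.44% of all examined genes), with a median of 1.67. In WT 5 of these 10 were higher (median 1.00). Members were examined by their dKO values. Without the filter on low values the dKO median of this list fell below 1, and with a pseudocount of 1 it was lower as well. Some listed collagens stayed below FPKM 1 in the dKO but rose, *Col1a1* (0.0395 and 0.525), *Col1a2* (0.179 and 0.426) and *Col3a1* (0.0702 and 0.231). *Lum* (0.0376 and 0.0476), *Dcn* (0.166 and 0.157) and *Fap* (0) were below FPKM 1 as well. Whether feeder cells remained was not tested. The called members were *Ccl2*, *Cxcl1*, *Col5a1*, *Loxl1*, *Pdgfrb*, *Fn1* and *Fbln2*. The FPKM summed over the 20 genes was 65.4 on day 2 and 125.7 on day 3, most of it *Vim*. In bulk RNA a change in the number of cells of a type cannot be told apart from a change of RNA per cell.

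Cardiac and lateral mesoderm genes were higher in the dKO in part. Of 34 listed genes 13 were examined, 9 were higher (69.2%, against 8.44% of all examined genes) and none was lower. In WT 7 of the 13 were higher. The median was 1.9 in the dKO and 1.23 in WT. Members were examined by their dKO values. Several called members, among them *Foxf1*, *Bmp4*, *Tnnt2* and *Myl4*, passed FPKM 1 only on day 3, where they were higher, which favours a high share. Without the filter on low values the dKO median was 0.638. Those higher were *Acta2*, *Hand1*, *Myl4*, *Tnnt2*, *Foxf1*, *Prrx2*, *Tagln*, *Bmp4* and *Tbx3*. *Tagln*, an actin-binding protein of smooth muscle, went from 249.8 to 936 in the dKO and from 165 to 230.0 in WT. *Foxf1*, a forkhead factor of lateral mesoderm, went from 0.290 to 1.69, a level that WT did not reach (0.114 and 0.741). *Tnnt2* and *Myl4*, a cardiac troponin and an atrial myosin light chain, reached 1.20 and 3.66 in the dKO and 1.05 and 4.19 in WT. *Twist1* (5.75 and 4.36) did not pass 2-fold.

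Wnt ligands changed in composition. Of 10 examined ligand genes 7 were higher (70.0%, against 8.44% of all examined genes) and 1 was lower in the dKO. The median was 2.22 against 0.82 in WT. Members were examined by their dKO values, and *Wnt7a*, *Wnt7b*, *Wnt9a*, *Wnt10b* and *Wnt11* passed FPKM 1 only on day 3. The dKO median was 1.12 without the filter on low values and 1.12 above FPKM 5. *Wnt7a* went from 0.209 to 5.26 in the dKO and from 0.424 to 0.914 in WT, and *Wnt4* from 1.25 to 9.37 in the dKO and from 2.2 to 3.97 in WT. *Wnt6*, a ligand expressed in surface ectoderm and amnion, went from 2.23 to 9.29 in the dKO and from 1.83 to 5.09 in WT. *Wnt7b*, *Wnt9a*, *Wnt10b* and *Wnt11* rose from below FPKM 1 to between 2.07 and 3.68 in the dKO. The ligands of the streak did not follow. *Wnt5b*, which promotes cell movement, went from 9.44 to 2.67 in the dKO and from 8.61 to 18.4 in WT. *Wnt3*, which induces the streak, was at 12.4 and 9.72 in the dKO and at 16.2 and 26.0 in WT, whereas *Wnt8a* stood at 32.8 and 38.8 in the dKO and at 17.5 and 43.3 in WT.

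**Figure D2:**
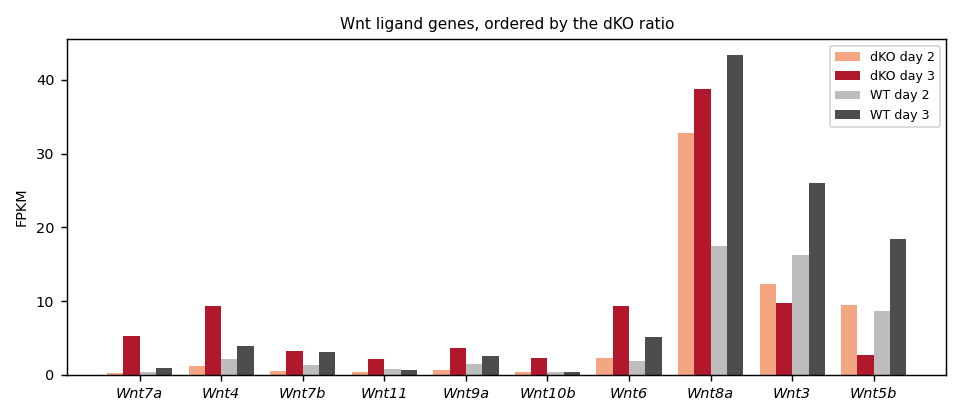
FPKM of the 10 examined Wnt ligand genes in the dKO on days 2 (orange) and 3 (red) and in WT on days 2 (light grey) and 3 (dark grey), 1 value per bar, ordered by the dKO ratio. *Wnt7a* to *Wnt6* rose in the dKO, and *Wnt5b* fell from 9.44 to 2.67 while it rose from 8.61 to 18.4 in WT.

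Targets and modulators of Wnt signalling showed no common shift. Of 24 examined genes 2 were higher (8.33%, against 8.44% of all examined genes) and 3 were lower (12.5%, against 3.16%) in the dKO. The median was −0.26 (0.20 in WT). *Axin2*, a feedback target used as a readout of the pathway, was at 5.09 and 4.21 in the dKO and at 10.8 and 14.0 in WT. *Dkk1*, a secreted inhibitor, went from 1.94 to 18.3 in the dKO and from 2.2 to 9.01 in WT. The receptor gene *Fzd2* went from 4.04 to 14.8. *Rspo3*, a secreted enhancer of Wnt signalling, went from 1.04 to 0.309 in the dKO and from 1.21 to 18.1 in WT.

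Genes of the primitive streak and nascent mesoderm lagged behind WT. Of 37 listed genes 18 were examined, and in 17 of them the dKO ratio was below the WT ratio (94.4%, against 45.9% of all examined genes). The list holds the targeted genes *Eomes* and *T*. Without them, a choice made after seeing the data, the dKO ratio was below the WT ratio in 15 of 16, 4 were lower, and the medians were −0.31 in the dKO and 0.59 in WT. With both included, the median was −0.42 in the dKO, where 1 gene was higher (5.56%) and 5 were lower (27.8%). Over all examined genes these shares were 8.44% and 3.16%. In WT the median was 0.81, with 9 higher and none lower. *Evx1*, a homeobox gene of the posterior streak, went from 3.22 to 0.326 in the dKO and from 3.46 to 5.11 in WT. *Tdgf1* (Cripto), the Nodal co-receptor, went from 1129 to 497 in the dKO and was at 563 and 555 in WT. *Fgf8* was the member that rose, from 3.47 to 10.5 in the dKO and from 13.6 to 57.4 in WT. *Cdx2*, *Cdx1*, *Dll1* and *Wnt8a*, which passed 2-fold in WT, did not in the dKO. With TPM the median stayed below 0 (−0.20) and 16 of the 18 dKO ratios were below those of WT.

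The same contrast can be read gene by gene over the whole transcriptome. The dKO and WT log2 ratios differed by more than 1 at 1385 of 11776 genes above FPKM 1 in any of the 4 columns, with the dKO above WT at 910 and below it at 475. Of the 957 genes higher in the dKO, 307 (32.1%) were also higher in WT, which is 43.7% of those higher in WT, and 16 were lower in WT. Of the 358 genes lower in the dKO, 140 (39.1%) were also lower in WT, which is 30.4% of those lower in WT, and 13 were higher in WT. The largest shortfalls in the dKO among genes reaching FPKM 10 were those of *Aplnr*, *Eif3j1*, *Rspo3*, *Grrp1*, *Mixl1*, *Fst*, *T*, *Nmb*, *Arl4d* and *Usp18*. *Aplnr*, the apelin receptor of nascent mesoderm, was at 0.0110 and 0.0277 in the dKO and rose from 0.0613 to 12.8 in WT. *Fst* (follistatin, an antagonist of activins) was at 11.7 and 8.27 in the dKO and rose from 18.9 to 181 in WT. *Nmb* (neuromedin B) was at 2.21 and 2.23 in the dKO and rose from 1.99 to 21.6 in WT. *Eif3j1* has a near-identical copy, *Eif3j2*, and its value is uncertain.

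The largest excesses in the dKO were those of *Cxcl10*, *Csf1*, *Acta2*, *Tubb3*, *AU018091*, *Rhox5*, *Cpe*, *Rps27*, *Tdh* and *S100a6*. *Cxcl10*, a chemokine, went from 1.53 to 18.9 in the dKO and was at 1.77 and 2.01 in WT. *Tubb3*, a tubulin abundant in neurons, went from 5.96 to 22.9 in the dKO and was at 8.25 and 5.25 in WT. *S100a6*, a calcium-binding protein, went from 17.9 to 161 in the dKO and was at 25.5 and 48.1 in WT. For *Cpe*, *Rps27* and *Tdh* the difference came from a fall in WT, since their dKO log2 ratios lay between −0.47 and 0.45. *Rps27* belongs to a ribosomal protein family with many copies in the genome, and its value is uncertain.

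**Figure D3:**
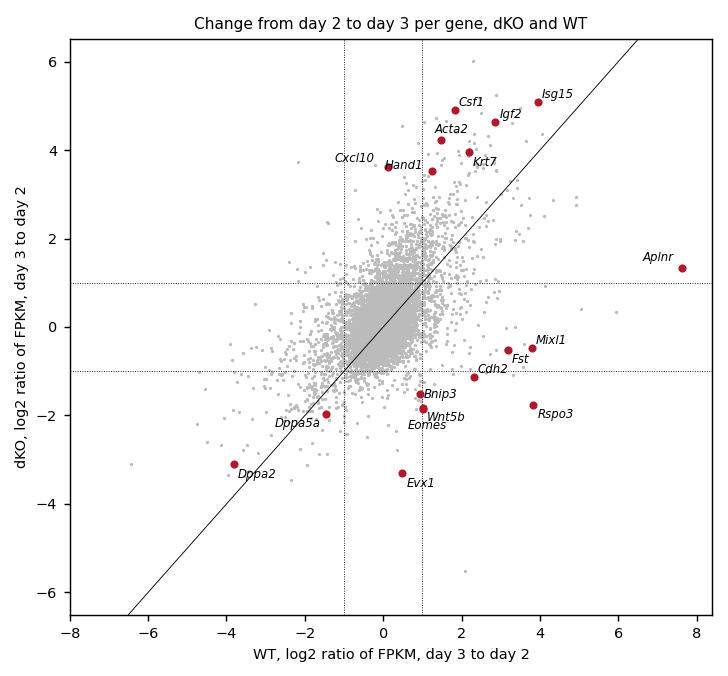
log2 ratio of FPKM on day 3 to day 2 in the dKO (vertical) against the same in WT (horizontal) for each gene examined in the dKO and above 0 in all 4 columns (grey points, short RNA, histone, Gm, Rik and pseudogene names left out), with named genes in red (*Aplnr* and *Mixl1* stayed below FPKM 1 in the dKO), dotted lines at 2-fold and a solid line of equal ratios. *Csf1* (4.90 in the dKO, 1.82 in WT) and *Acta2* lie above the line, while *Aplnr*, *Rspo3*, *Mixl1* and *Fst* lie far below it.

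Pluripotency genes were lower in part. Of 27 core and formative pluripotency genes, all examined, 8 were lower (29.6%, against 3.16% of all genes) and 2 were higher, with a median of −0.53 in the dKO and −0.14 in WT. With TPM 5 were lower and the median was −0.31, and *Pou5f1*, *Tdgf1* and *Etv5* were no longer called. *Pou5f1* (Oct4), the core factor, went from 1004 to 441 in the dKO (log2 −1.2) and from 733 to 483 in WT (log2 −0.68). *Nanog* was at 124 and 113 in the dKO and at 119.5 and 123 in WT, and *Sox2* at 42.1 and 35.8 in the dKO and at 21.3 and 21.1 in WT. Neither *Nanog* nor *Sox2* passed 2-fold in either genotype. *Foxd3*, a forkhead repressor of epiblast and neural crest, went from 4.99 to 0.687, and *L1td1*, an RNA-binding protein, from 196 to 75.3. The naive pluripotency genes split, with 3 higher (*Klf2*, *Tfcp2l1* and *Tbx3*) and 4 lower (*Dppa2*, *Dppa5a*, *Fgf4* and *Dppa4*) of 18 examined. These were 16.7% and 22.2%, against 8.44% and 3.16% of all examined genes, and the median was −0.31 in both genotypes. *Fgf5*, a marker of the formative state, went from 1.87 to 4.05 in the dKO and from 11.4 to 27.0 in WT.

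Neural genes were present in the dKO on both days and did not rise as a group. Of 48 neural plate and early neural regulators 20 were examined, 5 were higher (25.0%) and 3 were lower (15.0%). Over all examined genes these shares were 8.44% and 3.16%. The dKO ratio was below the WT ratio in 6 of the 20 (30.0%, against 45.9% of all examined genes). The median was −0.05 (−0.07 in WT), and with TPM the dKO median changed sign to 0.16. *Sox1*, a neural plate marker, was at 5.17 and 6.49 in the dKO and at 0.200 and 0.198 in WT. *Pax6* was at 4.23 and 4.03 in the dKO and at or below 0.100 in WT. *Tal2*, a basic helix-loop-helix factor, went from 1.16 to 3.84, and the Iroquois homeobox genes *Irx3* and *Irx5* from 3.94 to 10.5 and from 1.02 to 2.18. *Olig3* and *Pou3f1* were higher as well, while *En2* (1.72 to 0.517), *Sfrp2* and *Cdh2* were lower. Of 14 neural crest and placode genes 5 were higher (35.7%), led by *Krt8* and the surface ectoderm factor *Dlx3* (0.405 to 2.37). In the same list 4 were lower (28.6%), among them *Foxd3*, *Dlx6* and *Msx1*.

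Readouts of BMP signalling were not uniform although Bmp4 was present throughout. Of 14 examined BMP targets 2 were higher (14.3%), *Hand1* and *Tbx3*, and 3 were lower (21.4%), *Msx1*, *Id1* and *Id2*. The median was 0.10. *Id1* (2:152736251-152737410, mm10), an inhibitor of differentiation induced by Smad1/5, went from 101 to 40.5 in the dKO and from 51.3 to 30.3 in WT. *Id2* went from 88.2 to 41.7 in the dKO and was not called with TPM (log2 −0.87). *Msx1* went from 7.82 to 2.17 in the dKO and from 5.37 to 10.2 in WT, whereas *Msx2* stood at 9.77 and 15.0 (log2 0.61). Among ligands and antagonists, *Bmp4* (0.550 to 1.3), *Bmp7* (1.19 to 3.30) and *Nog* (0.772 to 3.11) were higher, as was the receptor *Bmpr2*. Of 17 Nodal pathway genes 2 were higher (*Furin* and *Smad3*, 11.8%) and 2 were lower (*Tdgf1* and *Gdf3*, 11.8%), with a median of 0.07. Over all examined genes 8.44% were higher and 3.16% lower. With TPM neither *Tdgf1* nor *Gdf3* was called. *Nodal* was at 24.8 and 17.8.

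Feedback genes of FGF/ERK signalling were lower in part. Of 16 examined genes 4 were lower (25.0%, against 3.16% of all examined genes) and 1 was higher (6.25%, against 8.44%). The median was −0.35 in the dKO and 0.08 in WT. *Dusp6* (10:99263231-99267489, mm10), an ERK phosphatase, went from 73.2 to 25.5 in the dKO and was at 62.6 and 71.3 in WT. *Spry4*, a receptor tyrosine kinase inhibitor, went from 7.87 to 2.27 in the dKO and was at 5.86 and 6.29 in WT. *Etv4* and *Etv5*, transcriptional targets of FGF, were lower in the dKO (log2 −1.73 and −1.17). *Etv4* fell in WT as well (log2 −1.80), and *Etv5* was not called with TPM (log2 −0.95). Among the ligands *Fgf4* went from 15.6 to 5.95 and *Fgf8* rose, and the receptor *Fgfr2*, which is expressed in epithelia, went from 2.33 to 12.9 in the dKO and from 2.75 to 7.48 in WT. *Ier3*, an immediate early gene, was the member that rose (2.18 to 16.6).

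Interferon-response and antigen-processing genes rose in both genotypes. Of 19 examined genes 11 were higher in the dKO (57.9%, against 8.44% of all examined genes) and none was lower (against 3.16%). In WT 13 were higher, and the medians were 1.28 in the dKO and 1.38 in WT. *Gbp2*, a guanylate-binding protein, went from 5.23 to 42.5 in the dKO and from 11.6 to 97.3 in WT. *Psmb8*, an immunoproteasome subunit, went from 1.21 to 8.20 in the dKO and from 5.82 to 70.6 in WT. *Isg15* went from 0.0516 to 1.76 in the dKO and from 1.18 to 19.1 in WT. For these 3 genes the dKO level on day 3 stayed below that of WT, while *Irf1*, a transcription factor of this response, was at 11.0 and 14.8 in the dKO and rose from 27.3 to 79.5 in WT.

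Many genes of glycolysis and the hypoxia response had ratios of opposite sign in the dKO and in WT. Of 30 examined genes, 21 had a dKO ratio below 0 and 29 a WT ratio above 0, and 20 (66.7%) combined both, against 15.6% of all examined genes. The median log2 ratio was −0.35 in the dKO and 0.54 in WT. Most of these changes were under 2-fold, with 4 genes lower (13.3%, against 3.16% of all examined genes) and 3 higher (10.0%, against 8.44%) in the dKO. *Ldha* (lactate dehydrogenase A) went from 1210 to 547 in the dKO and from 887 to 1343 in WT. *Bnip3*, a mitophagy receptor, went from 54.9 to 19.4 in the dKO and from 42.4 to 84.9 in WT. *Egln3*, an oxygen-sensing prolyl hydroxylase, went from 16.8 to 5.54 in the dKO and from 13.9 to 25.9 in WT, and *Ankrd37* from 11.4 to 4.70 in the dKO and from 9.38 to 13.7 in WT. *Pgk1*, a glycolytic enzyme, was at 423 and 222 in the dKO (log2 −0.94) and at 271 and 503 in WT. The glucose transporters rose in both, *Slc2a1* from 135 to 452 in the dKO and from 152 to 471 in WT, and *Slc2a3* from 221 to 517 and from 271 to 633. *Vegfa* was higher in the dKO (3.97 to 8.26). With TPM the dKO median was −0.13, 18 genes combined both signs and *Ldha* was no longer called (log2 −0.93). The bin of the most expressed genes had a dKO median of −0.21 (above), and its part in this result was not tested.

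**Figure D4:**
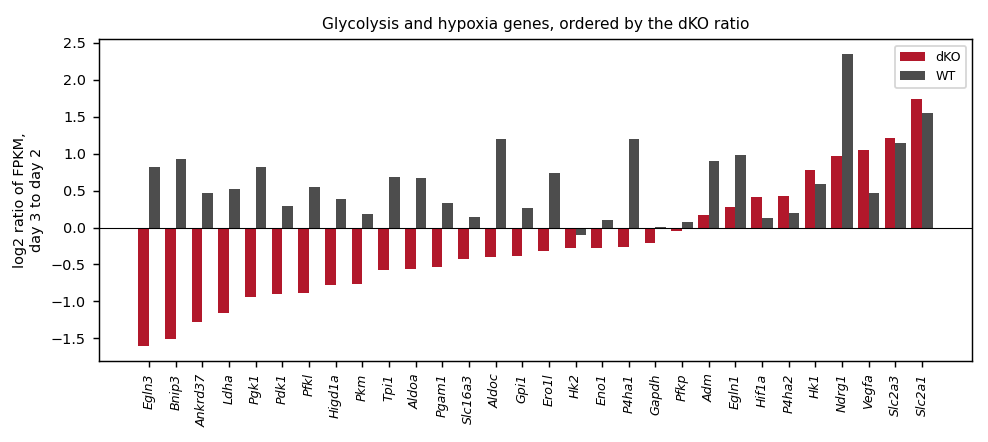
log2 ratio of FPKM on day 3 to day 2 for the 30 examined glycolysis and hypoxia genes in the dKO (red) and WT (grey), 1 value per bar, ordered by the dKO ratio. From *Egln3* (−1.61 in the dKO, 0.82 in WT) to *Pfkp* the dKO bars point down, and the WT bars point up except for *Hk2*.

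Promoter letters of the glycolysis and hypoxia list and of the interferon list were searched in the 250 bases before their transcription starts (RefSeq, GRCm38.p6, windows for 8844 of the 11336 examined genes). The letters ACGTG, the core of the element bound by hypoxia-inducible factors, occurred on either strand for 16 of 27 glycolysis and hypoxia genes with a window (59.3%), against 25.9% of examined genes and 18.5% of all 27025 genes with a window. They occurred for the lower genes *Ldha*, *Bnip3*, *Egln3* and *Ankrd37* and for the higher genes *Slc2a1* and *Vegfa*. The stretches of a gene that fell (*Bnip3*), of the abundant enzyme (*Ldha*) and of a transporter that rose (*Slc2a1*) are shown to set both behaviours side by side. Each is 120 bases on the strand of the gene, with ACGTG or its complement CACGT in capitals. In CACGTG both overlap.
*Bnip3* (chr7:138909589-138909708, minus strand): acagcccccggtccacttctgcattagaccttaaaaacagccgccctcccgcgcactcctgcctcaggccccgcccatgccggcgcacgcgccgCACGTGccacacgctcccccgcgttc
*Ldha* (chr7:46845675-46845794, plus strand): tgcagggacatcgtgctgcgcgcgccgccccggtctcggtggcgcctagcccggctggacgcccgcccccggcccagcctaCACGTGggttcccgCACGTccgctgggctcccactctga
*Slc2a1* (chr4:119108614-119108733, plus strand): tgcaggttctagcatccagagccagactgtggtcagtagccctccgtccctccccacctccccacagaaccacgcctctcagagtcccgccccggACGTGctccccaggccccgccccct
The letters thus occurred before genes that fell and before genes that rose in the dKO.

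For the interferon-response genes the letters GAAA, any 2 bases and GAAA, which recur in elements bound by interferon regulatory factors, were searched in the same windows on both strands. They occurred for 5 of 17 genes with a window (29.4%), namely *B2m*, *Bst2*, *Gbp2*, *Isg15* and *Stat2*, against 2.87% of examined genes and 3.46% of all genes with a window. The stretches of *Isg15* and *Gbp2*, which rose in both genotypes, are shown with the letters or their complement in capitals. In *Isg15* 3 overlapping copies form 1 run.
*Isg15* (chr4:156200855-156200974, minus strand): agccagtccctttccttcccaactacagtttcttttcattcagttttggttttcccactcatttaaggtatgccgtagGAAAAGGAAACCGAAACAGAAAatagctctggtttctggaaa
*Gbp2* (chr3:142620514-142620633, plus strand): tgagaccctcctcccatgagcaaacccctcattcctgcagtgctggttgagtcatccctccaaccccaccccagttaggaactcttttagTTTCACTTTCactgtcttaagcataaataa
*Bst2* and *Stat2*, which also hold the letters, were not called in the dKO (log2 −0.18 and −0.01). Searched in the same way, TCACACC, a core recognised by T-box factors, occurred for none of 11 streak genes with a window (3.2% of examined genes). The CArG box, bound by serum response factor, occurred for 1 of 8 cardiac and lateral genes, *Actc1* (1.38% of examined genes).

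Among other metabolic groups, targets of Atf4, the transcription factor of the amino acid stress response, had a median of −0.59 in the dKO and −0.50 in WT. Of 23 examined genes 4 were lower in the dKO (17.4%, against 3.16% of all examined genes) and none was higher (against 8.44%). The lower genes were *Nupr1*, *Chac1* and the serine synthesis enzymes *Psat1* (204 to 74.0) and *Psph* (58.4 to 20.9), with WT going from 259.8 to 138 and from 54.7 to 26.4. Cholesterol synthesis genes hardly moved, with 1 of 24 lower (*Idi1*, 56.2 to 25.5) and a median of 0.06.

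The single KO lines are given for the lists with the clearest changes. Their day 3 to day 2 ratios had robust SDs of 0.817 (*Eomes* KO) and 0.746 (*T* KO), wider than the 0.501 of the dKO, and the *Eomes* KO median went from −0.29 for the bin of shortest to 0.37 for that of longest transcripts. The median of the streak and nascent mesoderm list was −2.15 in *Eomes* KO and −0.96 in *T* KO cells, that of trophoblast and amnion 2.09 and 1.58, and that of Wnt ligands 1.40 and 0.43. For glycolysis and hypoxia the single KO medians were 0.34 and 0.26, on the side of WT. Of the 957 genes higher in the dKO, 650 (67.9%) were also higher in *Eomes* KO (40.4% of its higher genes) and 415 (43.4%) in *T* KO cells (28.2%). Of the 358 lower genes, 215 (60.1%) were lower in *Eomes* KO (17.6%) and 163 (45.5%) in *T* KO cells (14.6%). Over all examined genes, 13.9% were higher and 10.5% lower in *Eomes* KO, and 12.9% and 9.75% in *T* KO cells. Whether these shares differ between the lines was not tested.

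The lists are set side by side by their medians, which ran from −0.59 for Atf4 targets to 2.24 for trophoblast and amnion genes in the dKO. Among lists with at least 10 examined genes, those farthest below WT were streak and nascent mesoderm genes and glycolysis and hypoxia genes. Those farthest above WT were Wnt ligands. These medians cover members above FPKM 1 in the dKO on either day. Without that filter the dKO medians of Wnt ligands and of trophoblast and amnion genes were 1.12 and 1.05. Some genes, such as *Hand1* and *Krt8*, stand in several lists.

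**Figure D5:**
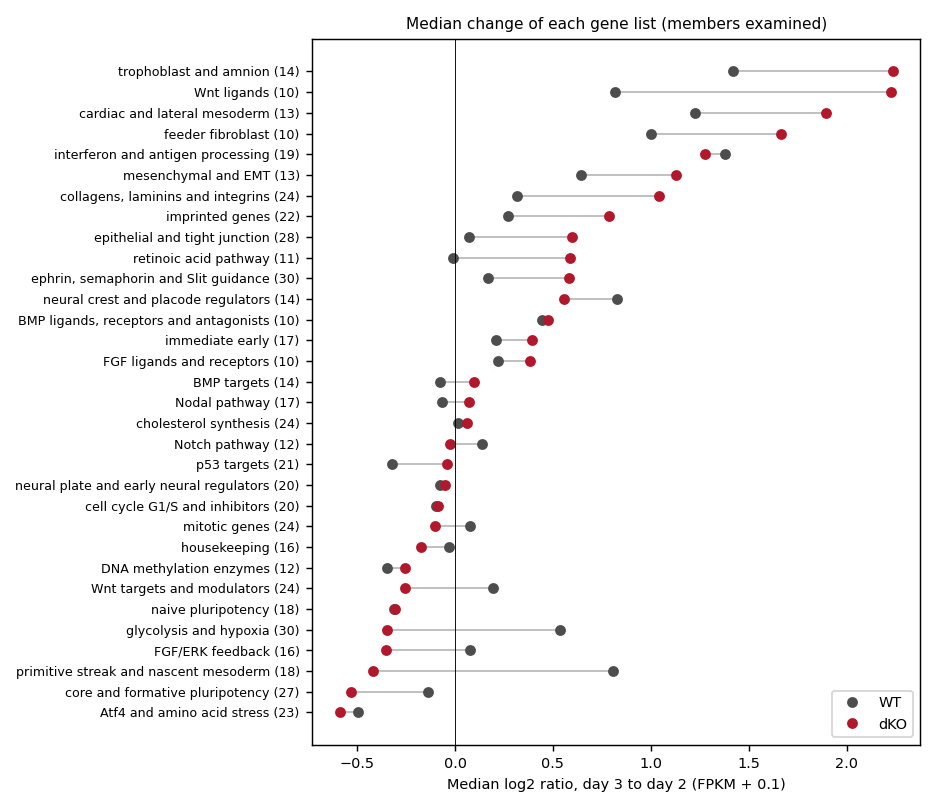
Median log2 ratio of day 3 to day 2 (FPKM with a pseudocount of 0.1) in the dKO (red) and WT (grey) for each list with at least 10 examined genes, with the number of examined genes in brackets. Wnt ligands (2.22 and 0.82) and streak genes (−0.42 and 0.81) show the widest gaps between dKO and WT. Without the filter on low values the dKO median of Wnt ligands was 1.12.

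The dKO was also compared with each WT stage over all genes. On day 2 the dKO differed past 2-fold from WT of day 2 at 8.08% of examined genes, from WT of day 1 at 15.7% and from WT of day 3 at 18.8%. On day 3 it differed from WT of day 3 at 11.0%, from WT of day 2 at 11.5% and from WT of day 1 at 24.9%. The distance of the dKO on day 3 to WT of day 2 and to WT of day 3 was thus similar.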

How the data were processed

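RNA-seq FPKM values were used as the authors deposited them, with 1 value per gene and condition computed by Cuffdiff. The submitters' processing notes name cutadapt 2.9, HISAT2 2.1.0, SAMtools 1.9 and Cuffdiff 2.2.1, and the genome was mm10. No counts accompany the FPKM used here, so depth is unknown and no test was possible. Fold changes and p-values calculated by the authors in the same tables were not used. Samples were grouped by their labels. Ratios of columns were scaled to a median of 1 over genes above FPKM 1 in both, and genes above FPKM 1 in either were examined. A gene was called higher or lower past 2-fold. Medians of lists used a pseudocount of 0.1. Scaling and calls were tested on simulated data. TPM, other scalings, pseudocounts, FPKM minimums and folds were alternatives. Genes were named as the 12 highest and 12 lowest ratios with FPKM of at least 10, the 10 largest differences from WT each way, and for each of 39 lists the called members and up to 4 of the most expressed others. Short RNA, histone, Gm, Rik and pseudogene names were left out of the first 2 rules. Further uncalled list members and lineage markers were named after their values were seen, and a few genes that these rules name are not reported here. The genes, lists and rules were chosen with earlier results of these data known. Positions and transcript lengths came from mm10 gene models and promoters from RefSeq (GRCm38.p6). Calculations used Python 3.11.15, numpy 2.4.6 and pandas 2.3.3.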

Additional observations from a re-analysis of the deposited data

Results flagged for a closer look

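For 7 of the genes that the naming rules cover, the dKO and WT values moved past 2-fold in opposite directions from day 2 to day 3. Each rests on 1 value per condition, and these differences were not tested. With TPM, *Cdh2* (log2 −0.91) and *Grrp1* (log2 −0.85) no longer passed 2-fold in the dKO. For genes at their low dKO level the robust SD between the WT lines was 0.727, and neither dKO ratio was past 2 of these SDs. The difference between the dKO and WT log2 ratios was −5.60 for *Rspo3* (−1.76 in the dKO, 3.83 in WT), the secreted enhancer of Wnt signalling. For *Grrp1* it was −4.39 (−1.08 in the dKO, 3.31 in WT). For *Cdh2* (N-cadherin) it was −3.45 (−1.13 in the dKO, 2.32 in WT). For *Eomes*, a targeted gene, it was −2.88 (−1.85 in the dKO, 1.03 in WT). The ligand *Wnt5b* differed by −2.86 (−1.83 in the dKO, 1.02 in WT). *Lmo2*, a cofactor of blood and endothelial progenitors, differed by −2.29 (−1.25 in the dKO, 1.04 in WT). *Col2a1*, the collagen of cartilage and notochord, went the other way with a difference of 3.24 (1.25 in the dKO, −1.99 in WT).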

How the results depend on the processing

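Of 957 higher and 358 lower genes, a pseudocount of 1 left 563 and 159, no filter on low values gave 2859 and 1805, FPKM above 5 gave 455 and 146, and 4-fold left 294 and 60. TPM gave 224 lower genes, TPM without short RNA genes 215, and a threshold of 2 robust SDs of the WT lines 1165. The trophoblast and amnion median became 1.66 with a pseudocount of 1, 1.05 without a filter and 2.67 above FPKM 5. The cardiac and lateral mesoderm median became 0.901 with a pseudocount of 1 and 0.638 without a filter. The Wnt ligand median became 1.36 with a pseudocount of 1, 1.12 without a filter and 1.12 above FPKM 5. Genes whose dKO and WT log2 ratios differed by more than 1 numbered 631 with a pseudocount of 1, 4167 without a filter and 540 above FPKM 5. The higher genes shared with WT numbered 155, 929 and 141 under the same settings, and the lower genes shared with WT 60, 745 and 48. A pseudocount compresses ratios of low values and the filters change how many genes enter. The cause of the other shifts was not tested. The other 84 values of these counts and medians moved by less than 1.5 times or less than the robust SD between the WT lines (0.344). With TPM the medians of the neural plate, Notch, p53, G1/S, mitotic, housekeeping and endoderm lists, all within 0.2 of 0 before, went from below to above 0. The 24 highest and lowest genes stayed past 2-fold under every alternative run, and 10 of them did not reach 4-fold. No paired analysis was possible because each condition has a single column of values, and for the same reason no replicate could be left out. With 1 value per condition and no read depth, small or low-expressed differences have no error estimate.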

Other observations

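Imprinted genes, which are expressed from 1 parental allele and often regulate growth, moved up in the dKO. Of 22 examined genes 9 were higher (40.9%, against 8.44% of all examined genes) and none was lower (against 3.16%). The median log2 ratio was 0.79 in the dKO and 0.27 in WT. Besides *Igf2*, the paternally expressed *Peg10* went from 20.7 to 117 in the dKO and from 86.4 to 126 in WT, and *Mest* from 29.6 to 79.0 in the dKO, with 37.1 and 43.5 in WT. *H19*, the noncoding neighbour of *Igf2*, went from 1.16 to 4.49 in the dKO and from 127 to 651 in WT. It thus stayed far below WT on both days while *Igf2* ended above it.

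None of 7 examined Hox and Cdx genes was called in the dKO (1 was higher with TPM), against 6 higher and 1 lower in WT. *Hoxb2* was at 6.35 and 8.52 in the dKO and rose from 0.177 to 6.16 in WT. *Crabp2*, a retinoic acid binding protein, went from 23.4 to 56.8 in the dKO and was at 18.6 and 19.4 in WT. Among 17 immediate early genes 5 were higher (29.4%, against 8.44% of all examined genes). These were *Fos*, *Ier3*, *Junb*, *Jun* and *Fosl2*, with *Fos* going from 0.429 to 3.49 in the dKO. Germ cell genes split, *Ddx4* going from 19 to 7.73 and *Dazl* from 1.83 to 0.441 in the dKO while *Ifitm1* and *Ifitm3* were higher. None of 24 mitotic genes was called, and the cyclin-dependent kinase inhibitors *Cdkn2a*, *Cdkn2b* and *Cdkn1c* were the 3 called genes of 20 G1/S genes, all higher. Of 21 p53 targets only *Fas* was called (1.58 to 4.35).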
